A study of Arabidopsis thaliana with 14 samples.

Results

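The comparison set out here is that of 2 Arabidopsis thaliana wild types, the accessions Wassilewskija and Columbia, in untreated seedlings. An accession is a natural strain kept as an inbred line, and accessions differ from each other in sequence, gene content and gene regulation. It used the 2 arrays titled Wassilewskija, from batch 1 and batch 2, and the 3 arrays titled Columbia, numbered as biological replicates, 5 of the 14 arrays of the series. The members were chosen by these titles alone, and no measured value entered the choice.

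The series profiled whole seedlings with the Affymetrix ATH1 array. All seedlings were 12 days old, grown on agar in cycles of 16 h light and 8 h dark, and both wild types were sampled without further treatment. The other 9 arrays are the mutant csn5a-1 (3 arrays), a mutant labelled CSN8 (2 arrays), Wassilewskija + DTT (2 arrays) and CSN8 + DTT (2 arrays). Both mutants are named after subunits of the COP9 signalosome, a protein complex that regulates cullin ubiquitin ligases. The labels do not state the accession of CSN8, nor the dose or duration of DTT. The submitters' treatment text gives no additional treatment for all samples, including those labelled DTT.

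Much of the expression variation known among Arabidopsis accessions lies in defence and detoxification. Glucosinolates, the sulfur-rich defence compounds of the cabbage family, differ between accessions through variants at a few biosynthetic loci. Jasmonate induces peptides such as thionins and defensins, and tau class glutathione transferases with UDP-glycosyltransferases conjugate foreign or reactive molecules. Probes on this array were designed on the Columbia sequence, so a sequence difference in Wassilewskija under a probe can lower its signal with no change in RNA, which was not tested.

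Levels are log2 values after joint quantile normalization, and a change is Wassilewskija minus Columbia on that scale with its limma standard error (SE). The deposited values of the 2 array sets had been scaled apart. Sorted values differed by a median of 0.472 to 0.534 between the 6 Columbia and csn5a-1 arrays and the 8 others, against at most 0.0754 within either set. Accession, experiment and array set cannot be told apart in this comparison. Columbia arrays correlated with each other with r of 0.989 to 0.995 across probe sets, the Wassilewskija arrays with 0.981, and arrays of different accessions with 0.908 to 0.929. As deposited, the median change of all probe sets was -0.43, and with each array centred on its median it was 0.18. The share of calls that were higher in Wassilewskija was 50.02% after joint quantile normalization, 14.08% as deposited and 63.3% with centring, so directions of small changes depend on the scaling. The signal of the GAPDH control at its 3′ end exceeded that at its 5′ end by 0.304 and 0.305 in Wassilewskija and by 0.886 to 1.130 in Columbia, and for actin by 2.464 and 2.783 against 2.258 to 2.570. The part of this GAPDH difference in the results was not tested. Of 18 markers known to differ between accessions that the naming rule listed, 2 were measured with a single gene, AOP3 and THI2.1. Both were high in the 3 Columbia arrays and low in csn5a-1 as well as in all 8 arrays of the other set. The labels do not state the accession of csn5a-1. The values of these 2 markers do not establish the accession label Columbia, and it was not checked otherwise. Accession names here and below are those of the array titles. What the seed stock of the Columbia arrays adds to the changes below was not tested. In bulk seedlings, fewer cells of a type and less RNA per cell cannot be told apart.

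Of 22746 probe sets tested, 8924 differed between the wild types at a Benjamini-Hochberg adjusted p under 0.05 (39.2%). Of these 4464 were higher (19.6%) and 4460 lower (19.6%) in Wassilewskija. With a change of at least 2-fold as well, 4030 were called (17.7%), 2004 higher (8.81%) and 2026 lower (8.91%). A change of at least 8-fold was called for 198 higher and 168 lower probe sets, and of at least 32-fold for 11 and 23. The 95% interval of a change reached 0.40 log2 units to either side at the median.

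The largest decreases with a gene symbol began with THI2.1 and SAG29. THI2.1 (AT1G72260), a jasmonate-induced thionin, read 9.58, 9.08 and 9.39 in the 3 Columbia arrays and 2.95 and 3.11 in the 2 Wassilewskija arrays. SAG29 (AT5G13170), a sugar transporter also called SWEET15 that is known from senescing leaves and seeds, read 10.74, 10.96 and 10.53 against 4.89 and 5.19. Both genes were high in Columbia and low in Wassilewskija. Their changes were -6.32 ± 0.17 (80.1-fold lower, adjusted p = 4.19e-09) and -5.71 ± 0.22 (52.2-fold lower, adjusted p = 2.07e-08). The lowest 10% of all values lay under 2.80, so the level of THI2.1 in Wassilewskija was near the floor of the array and its fold is limited by that floor.

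ECS1 (AT1G31580) read 9.08, 8.28 and 7.07 in Columbia and 2.52 and 2.69 in Wassilewskija, where its mean was under that level. The Columbia arrays spread over more than 2 log2 units and still lay far above both Wassilewskija arrays. The change was -5.54 ± 0.42 (adjusted p = 3.14e-06). HIS1-3 (AT2G18050), a linker histone known to be induced by drought, read 9.25, 10.08 and 10.15 against 4.74 and 4.79 (-5.06 ± 0.30, adjusted p = 7.01e-07). HTB11 (AT3G46030), a histone H2B gene, read 7.0, 7.34 and 7.33 against 3.23 and 3.21 (-4.0 ± 0.20, adjusted p = 2.18e-07). Others among the 15 largest decreases were ZW9 (-4.93), TBL26 (-3.92), the peroxidase PRX52 (-3.80) and the organic cation transporter OCT1 (-3.68). The rest are described with their groups below. No Wassilewskija array reached a Columbia array for any of the 15, as the naming rule required; the wild type arrays did not overlap for 62.7% of all probe sets.

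The largest increases with a symbol were those of SBT4.12 and Prx37. SBT4.12 (AT5G59090), a subtilase (a serine protease), read 5.32, 4.94 and 4.06 in Columbia and 8.58 and 9.16 in Wassilewskija. Prx37 (AT4G08770), a class III peroxidase, read 3.48, 3.52 and 3.41 against 7.27 and 7.28. Levels within each accession were close for Prx37 and wider for SBT4.12, and both genes were separated by over 3 log2 units. The changes were 4.1 ± 0.34 (17.1-fold higher, adjusted p = 5.73e-06) and 3.81 ± 0.24 (14.03-fold higher, adjusted p = 8.52e-07). PRN (AT3G59220), a pirin that binds the G protein alpha subunit, rose by 3.57 ± 0.45, and SUFE2 (AT1G67810), a sulfur acceptor for iron-sulfur cluster assembly, by 3.5 ± 0.50.

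The glutamine amidotransferase gene GAT1_2.1 (AT1G15040) rose by 3.19 ± 0.44 and tny (AT5G25810), an AP2/ERF transcription factor, by 3.18 ± 0.19. Fes1B (AT3G53800), a nucleotide exchange factor of Hsp70, rose by 3.08 ± 0.26, the defensin PDF2.5 (AT5G63660) by 3.03 ± 0.41 and the cold-regulated clock gene COR27 (AT5G42900) by 3.01 ± 0.38. CML38 (AT1G76650), a calmodulin-like protein, read 3.69, 3.87 and 3.96 in Columbia against 8.00 and 6.54, and XTH18 (AT4G30280), a cell wall xyloglucan enzyme, 5.96, 5.99 and 5.42 against 9.09 and 8.54. Both are higher in each Wassilewskija array than in any Columbia array, as the naming rule required. Their calls (adjusted p = 0.00934 and 0.0130) were lost without Wassilewskija of batch 1, with changes of 2.70 (adjusted p = 0.0942) and 2.75 (adjusted p = 0.0845).

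**Figure D1:**
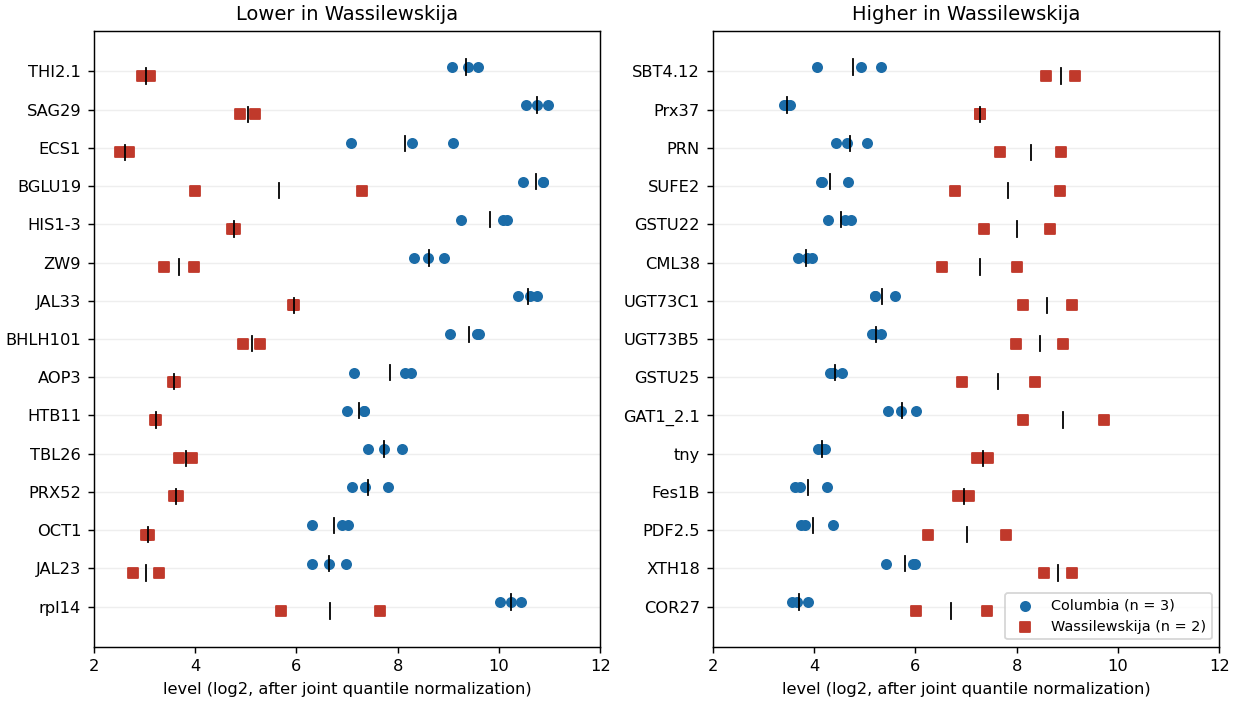
Levels on each of the 5 wild type arrays (log2, after joint quantile normalization) for the 15 genes with a symbol that fell most in Wassilewskija (left) and the 15 that rose most (right). Circles are the 3 Columbia arrays, squares the 2 Wassilewskija arrays and black bars the group means. The groups do not overlap for any of the 30 genes, as the naming rule required, and this holds for 62.7% of all probe sets. The Wassilewskija arrays lie far apart for BGLU19 (4.0 and 7.29) and SUFE2 (8.87 and 6.78).

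Larger changes still were measured for genes with a locus number and no symbol in the reference table. AT5G62360 read 3.51, 3.86 and 3.43 in Columbia and 10.41 and 10.32 in Wassilewskija (change 6.77 ± 0.56, 109-fold higher, adjusted p = 6.42e-06). AT3G28270 read 10.44, 10.70 and 11.02 against 3.08 and 3.37 (change -7.49 ± 0.37, 180-fold lower, adjusted p = 2.07e-07). AT2G27420 fell by 6.62 on the log2 scale and AT5G48430 rose by 6.07. These are the ends of the distribution among probe sets with 1 gene.

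Lists were defined by gene symbol, and members not found by name in the annotation were not counted. They were chosen with earlier results of these data known, and families by symbol stem after seeing values. Their counts beside the shares over all probe sets are therefore a description. Of 9 measured members of a redox and detoxification list fixed at 55 symbols, 6 rose and none fell. The median change was 2.44, against a median of 0.00 over all probe sets tested, where 19.6% rose. GSTU22 (AT1G78340), a tau class glutathione transferase, read 4.74, 4.61 and 4.28 in Columbia and 8.65 and 7.35 in Wassilewskija (change 3.46 ± 0.51, adjusted p = 0.000285). GSTU25 (AT1G17180) read 4.56, 4.38 and 4.32 against 8.37 and 6.92 (change 3.22 ± 0.40, adjusted p = 9.53e-05). In both genes the batch 1 array was the higher of the Wassilewskija arrays, and both arrays were far above Columbia.

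The UDP-glycosyltransferase genes UGT73C1 (AT2G36750) and UGT73B5 (AT2G15480) rose by 3.27 ± 0.34 and 3.23 ± 0.30, the methionine sulfoxide reductase gene MSRB9 by 2.44 ± 0.49 and GSTU26 by 1.70 ± 0.38. UGT73B4 (0.92, adjusted p = 0.0615), UGT74F1 (0.44, adjusted p = 0.0757) and the glutathione reductase gene GR1 (-0.39, adjusted p = 0.145) did not pass. Leaving out any 1 wild type array left 6 to 8 members higher, with medians of 1.87 to 2.73. As deposited the median was 1.87, with 6 members higher and 1 lower.

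Among all 11 measured GSTU genes, 6 rose, GSTU23 fell (-1.05 ± 0.15) and the median change was 0.90. The larger UGT family, whose enzymes attach sugars to hormones and secondary metabolites, had 12 of 47 members higher, 13 lower and a median change of 0.20, beside 19.6% each way over all probe sets. UGT76B1 (2.33) and UGT85A4 (1.49) rose, while UGT85A5 (-2.83), UGT72B3 (-2.42) and UGT88A1 (-1.85) fell. The UGT median was -0.16 as deposited, with 8 members higher and 20 lower, and the number of higher members ran from 10 to 19 when 1 wild type array was left out, with 10 without Wassilewskija of batch 1 and 19 without batch 2. Of 24 cytochrome P450 genes, 5 rose and 9 fell, beside 19.6% each way over all probe sets. As deposited 2 rose and 14 fell, and with median centring 7 rose and 8 fell. CYP71B28 read 7.21, 7.04 and 7.32 in Columbia and 4.26 and 3.96 in Wassilewskija (change -3.08 ± 0.15), and CYP718 rose by 1.94.

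In the glucosinolate and myrosinase list of 55 symbols, 4 of 7 measured members fell and none rose, beside 19.6% lower over all probe sets. The median change was -1.34. AOP3 (AT4G03050), an oxygenase known from accessions such as Landsberg erecta to make hydroxyalkyl glucosinolates, read 8.15, 7.14 and 8.27 in Columbia and 3.56 and 3.6 in Wassilewskija. The change was -4.27 ± 0.27 (19.3-fold lower, adjusted p = 1.04e-06). The transporter GTR1 read 8.28, 8.43 and 8.25 against 6.27 and 6.07 (change -2.15 ± 0.20), and UGT74B1, which glucosylates the core structure, 8.48, 8.67 and 8.68 against 7.27 and 7.28 (change -1.34 ± 0.22). All 3 genes were lower in both Wassilewskija arrays by more than the spread within either accession.

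AOP1, the neighbour of AOP3 at the same locus, fell by 1.27 on the log2 scale (adjusted p = 0.0215). Its call was lost without Wassilewskija of batch 1 (-0.90, adjusted p = 0.186) and without Columbia replicate 3 (-0.99, adjusted p = 0.0741). BCAT4, which starts methionine chain elongation, read 10.46, 9.80 and 10.01 against 7.42 and 9.22 and did not pass (-1.77 ± 0.70, adjusted p = 0.0661). GTR2, the relative of GTR1, changed by 0.26 and did not pass either. The list had 3 to 5 lower members when 1 wild type array was left out, and its median stayed below 0 under each scaling.

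Of 13 members of the jasmonate and defence peptide list, 4 rose and 3 fell, beside 19.6% each way over all probe sets, with a median of -0.22. As deposited 3 rose and 6 fell, and with median centring the median was 0.05. Beside THI2.1, the defensin PDF2.1 fell, from 8.86, 8.71 and 8.82 in Columbia to 4.60 and 6.95 in Wassilewskija (change -3.02 ± 0.69, adjusted p = 0.00512; -1.85 and adjusted p = 0.0730 without batch 1). JMT, the jasmonate methyltransferase, fell by 0.40 on the log2 scale at levels near the floor. PDF2.5 (3.03), LCR69 (1.66 ± 0.15), LCR68 (1.18 ± 0.16) and PDF1.2 (0.94 ± 0.26), all of the defensin family, rose. LCR67 read 5.35 in batch 1 and 9.26 in batch 2 of Wassilewskija against 8.40 to 9.38 in Columbia and did not pass (adjusted p = 0.448). Its batch 1 array lay below every Columbia array and its batch 2 array within their range.

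All 4 jacalin lectin genes found by name passed, 3 lower and 1 higher, beside 39.2% called over all probe sets. Jacalin lectin genes that carry only a locus number were not counted, so these 4 do not describe the whole family. JAL33 (AT3G16450) read 10.75, 10.62 and 10.37 in Columbia and 5.95 and 5.93 in Wassilewskija (change -4.64 ± 0.18, adjusted p = 2.07e-08), and JAL23 (AT2G39330) 6.98, 6.31 and 6.63 against 2.78 and 3.29 (change -3.6 ± 0.19). Both were lower in Wassilewskija on every array, and the wild type arrays did not overlap for 62.7% of all probe sets. JAL22 fell by 0.70 on the log2 scale (-0.42 and adjusted p = 0.197 without Wassilewskija of batch 1, adjusted p = 0.0504 without Columbia replicate 3). JAL34 rose by 0.39, a call lost without Columbia replicate 2 (adjusted p = 0.0889) or 3 (adjusted p = 0.0925) and without Wassilewskija of batch 2 (adjusted p = 0.222).

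Of 7 measured metal and ion transport genes 3 fell and none rose (6 and none as deposited), with a median of -0.75, beside 19.6% each way over all probe sets. BHLH101 (AT5G04150), a transcription factor of the iron deficiency response, read 9.03, 9.57 and 9.61 in Columbia and 4.95 and 5.29 in Wassilewskija (change -4.28 ± 0.63, adjusted p = 0.000293). PYE (AT3G47640), a regulator of the same response, read 8.14, 8.28 and 8.29 against 5.32 and 5.66 (change -2.75 ± 0.41, adjusted p = 0.000357). Neither gene overlapped between the accessions, as for 62.7% of all probe sets. LPR1, a ferroxidase of the root tip, fell by 0.86 on the log2 scale, and its call was lost without Columbia replicate 1 (adjusted p = 0.0724) or 2 (adjusted p = 0.0655) and without Wassilewskija of batch 1 (adjusted p = 0.138).

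The XTH enzymes of the cell wall, which cut and rejoin xyloglucan, had 6 of 9 members higher and 2 lower, with a median of 0.83, beside 19.6% each way over all probe sets. XTH16 read 6.17, 6.02 and 5.78 in Columbia and 8.12 and 8.71 in Wassilewskija (change 2.42 ± 0.46). XTH20 rose by 1.37 and XTH33 by 2.65 (2.3, adjusted p = 0.0724 without batch 2), while XTH32 fell by 1.73 on the log2 scale. Without Wassilewskija of batch 2, 3 XTH members were higher. Of 10 alpha-expansins, which loosen the wall, 4 rose and none fell, and the median was 0.20; as deposited 4 rose, 3 fell and it was -0.23. EXPA16 read 3.42, 3.3 and 3.54 against 6.36 and 6.0 (change 2.76 ± 0.20, adjusted p = 2.98e-06). EXPA7 and EXPA18, which are expressed in root hair cells, rose by 2.74 ± 0.32 and 2.17 ± 0.17. The beta-expansin EXPB3 read 8.13, 7.46 and 7.95 against 5.02 and 7.11 (-1.78; -0.74 and adjusted p = 0.0614 without batch 1).

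In the auxin and growth list that holds these genes, 6 of 23 members rose, 5 fell and the median was -0.28, beside 19.6% each way over all probe sets; as deposited 6 rose and 13 fell. Of the auxin genes in it, WES1 (GH3.5), which conjugates auxin to amino acids, fell by 1.28 on the log2 scale and the lateral root factor LBD16 by 1.23. Both lay below Columbia in each Wassilewskija array, and the wild type arrays did not overlap for 62.7% of all probe sets.

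Among the 14 SWEET sugar transporters found by name, 4 fell and 1 rose, beside 19.6% each way over all probe sets (8 and 1 as deposited). SWEET4 read 7.34, 7.36 and 6.96 in Columbia and 5.28 and 5.20 in Wassilewskija (change -1.98 ± 0.31), and SWEET17, a fructose transporter of the vacuole, 9.0, 8.65 and 8.65 against 6.35 and 7.67 (change -1.76 ± 0.36). SWEET11, which exports sucrose for phloem loading, fell by 1.03 on the log2 scale and SWEET10 rose by 1.16. The call of SWEET13 (-2.0, adjusted p = 0.0466) was lost with any 1 wild type array left out (adjusted p of 0.0726 to 0.188). With 1 array left out, 2 to 4 SWEET members were lower, 2 without Wassilewskija of batch 1, and the family's median was -0.19 (0.09 with median centring). SAG29 is the transporter SWEET15 under another symbol and was not counted in this family.

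Of 9 ubiquitin ligases of the PUB family, 2 rose and 2 fell, beside 19.6% each way over all probe sets (2 and 6 as deposited). PUB19 (AT1G60190), a ligase of the abscisic acid and drought response, read 8.09, 8.06 and 8.06 in Columbia and 4.25 and 5.13 in Wassilewskija (change -3.38 ± 0.40, adjusted p = 6.99e-05). PUB22 (AT3G52450), a negative regulator of immunity, read 4.71, 4.69 and 4.73 against 7.95 and 6.93 (change 2.74 ± 0.29, adjusted p = 3.40e-05). PUB26 fell by 2.75 on the log2 scale and PUB23 rose by 1.53. None of these 4 overlapped between the accessions, which held for 62.7% of all probe sets.

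In the cold and dehydration list 3 of 5 members rose and none fell, beside 19.6% each way over all probe sets. COR47, a dehydrin, read 10.03, 10.43 and 10.37 in Columbia and 12.75 and 11.70 in Wassilewskija (change 1.95 ± 0.32, adjusted p = 0.000634), and COR15B, which protects chloroplast membranes in the cold, 7.30, 7.76 and 7.16 against 8.94 and 8.61 (change 1.37 ± 0.22). The call of LTI30 (1.75) was lost without Wassilewskija of batch 1 (0.69, adjusted p = 0.297) and without Columbia replicate 1 (1.5, adjusted p = 0.0722). Of 4 heat shock genes, AT5G48570 (3.22) and Fes1A (2.79 ± 0.31) rose and HSA32 (-1.03) fell. In the flavonoid list CHIL, a chalcone isomerase-like protein, read 9.36, 9.17 and 9.31 against 7.46 and 7.66 (change -1.72 ± 0.22), 2 of 7 members fell and none rose (5 fell as deposited, 1 rose and 1 fell with median centring). GIS, a zinc finger regulator of trichome formation, read 8.12, 7.71 and 7.69 against 4.26 and 4.96 (change -3.23 ± 0.38), with 2 of 3 trichome genes lower.

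**Figure D2:**
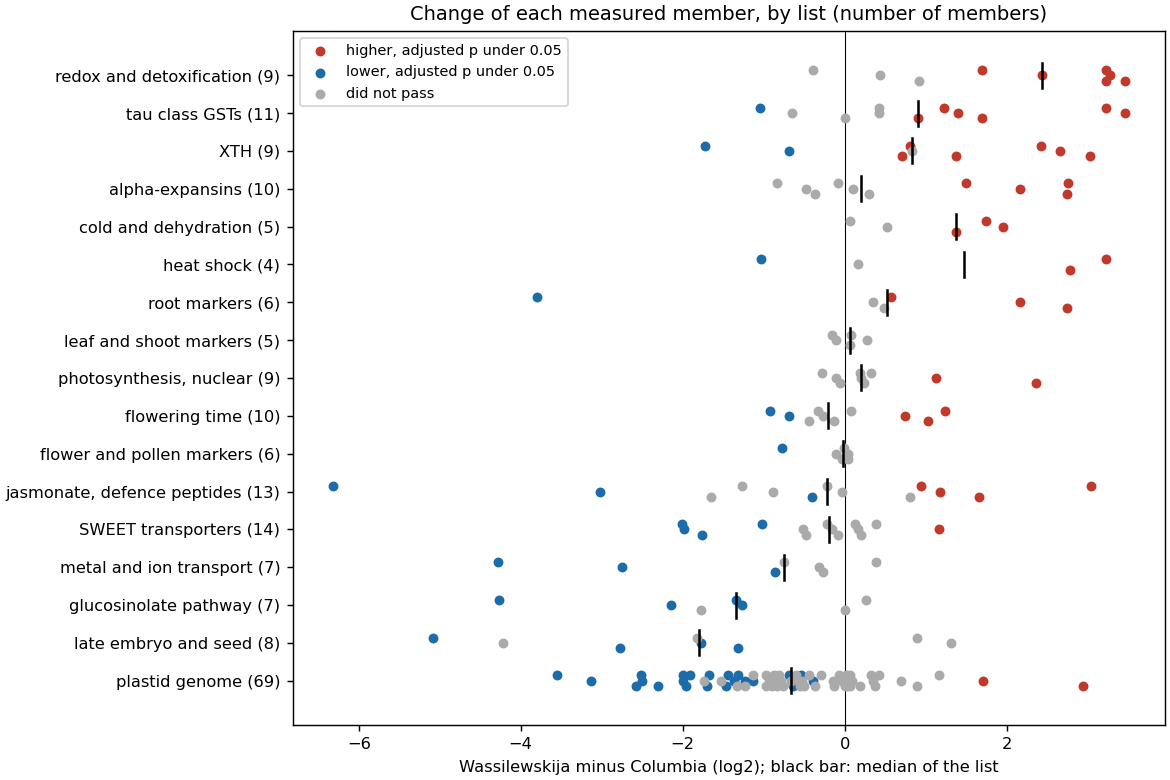
Change of each measured member (Wassilewskija minus Columbia, log2) for 17 lists and families, with the number of members in brackets. Red and blue points passed an adjusted p of 0.05, grey points did not, and the black bar is the median. Redox and detoxification genes lie mostly to the right (median 2.44), seed, glucosinolate and plastid genes mostly to the left (medians -1.80, -1.34 and -0.67), and the leaf and shoot markers close to 0.

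None of 5 leaf and shoot markers passed (changes from -0.16 to 0.27). As deposited 2 were lower and their median was -0.37, against -0.43 over all probe sets. Of 9 nuclear photosynthesis genes, PORB, the light-dependent enzyme of chlorophyll synthesis, rose from 7.08, 6.86 and 7.29 to 9.48 and 9.39 (change 2.36 ± 0.22, adjusted p = 1.29e-05), and 7 did not pass, beside 19.6% higher over all probe sets. With median centring 6 of the 9 were higher (median 0.62). LHCB4.3 also passed (1.13, adjusted p = 0.0441) and was lost with Columbia replicate 2 or 3 or either Wassilewskija array left out (adjusted p of 0.0825 to 0.208). Of 6 root markers, EXPA7, EXPA18 and NAI1 (0.57) rose, PRX52 fell, and PYK10 (0.35) and NAI2 (0.48) of the root endoplasmic reticulum bodies did not pass. NAI1 turned to -0.05 on the deposited values. Flower and pollen markers had medians of 3.1 to 3.27 on the wild type arrays, near the floor, and 1 of 6, EMS1, was lower (-0.78).

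Of 69 measured genes of the plastid genome, 22 were lower, 2 higher and the median change was -0.67, beside 19.6% each way over all probe sets, with 14 to 23 lower when 1 wild type array was left out. The ribosomal protein gene rpl14 read 10.02, 10.43 and 10.23 in Columbia and 7.64 and 5.70 in Wassilewskija (change -3.56 ± 0.50). The large Rubisco subunit gene rbcL read 11.71, 11.89 and 10.67 against 8.69 and 9.01 (change -2.57 ± 0.56), and rps2 7.61, 8.09 and 8.08 against 5.24 and 4.34 (change -3.14 ± 0.44). These 3 fell on both Wassilewskija arrays. The 2 higher members were ndhD and psbA, and 45 members did not pass. For ndhD, a subunit of the NDH complex, levels were 7.12, 7.08 and 7.14 against 9.86 and 10.25 (change 2.94 ± 0.30). For psbA, the D1 protein of photosystem II, they were 10.29, 9.77 and 9.20 against 11.13 and 11.80 (change 1.71 ± 0.41). Without Wassilewskija of batch 2, 14 members were lower. In csn5a-1 the plastid median level ran from 7.81 to 9.72 between replicates, against 9.27 to 9.43 in Columbia and 8.06 and 8.47 in Wassilewskija.

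Late embryo and seed genes differed between the wild types and between the Wassilewskija batches. Of 8 measured members 4 fell, none rose and the median change was -1.80, beside 19.6% lower over all probe sets. BGLU19 (AT3G21370), a beta-glucosidase of the list, read 10.47, 10.86 and 10.86 in Columbia and 4.0 and 7.29 in Wassilewskija (change -5.09 ± 1.06, adjusted p = 0.00294). LEA4-5, a late embryogenesis protein that is also induced by drought, read 8.66, 8.79 and 8.90 against 6.69 and 7.33 (change -1.78 ± 0.28, adjusted p = 0.000487). These 2 genes lay below Columbia in both batches. M17, a late embryo gene, read 10.72, 10.22 and 10.22 against 3.29 in batch 1 and 9.04 in batch 2 (change -4.22 ± 1.96, adjusted p = 0.112). PAP85, a vicilin-like seed storage protein, read 6.15, 5.88 and 6.62 against 5.08 in batch 1 and 9.13 in batch 2 (adjusted p = 0.700). For both, the array of batch 1 was low and that of batch 2 high.

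The same batch order was measured with DTT. M17 read 2.53 and 8.86 in batches 1 and 2 of Wassilewskija + DTT and 2.73 and 8.21 in those of CSN8 + DTT, but 5.05 and 5.59 in CSN8. PAP85 read 2.98 and 8.93, 4.88 and 8.68, and 6.53 and 8.69 in the same groups. The median level of the list was 8.19 to 8.64 in Columbia, 4.88 in Wassilewskija of batch 1 and 7.31 in that of batch 2. In csn5a-1, of the same array set as Columbia, it was 5.03 to 5.34. In CSN8 without DTT the batch order was reversed, with 6.36 in batch 1 and 5.15 in batch 2. Without batch 1, 2 members were lower and the median was -1.15. Without batch 2, 5 were lower and it was -2.40. LEA18 (-2.77, adjusted p = 0.0461) was lost with any Columbia array left out (adjusted p of 0.0844 to 0.101) and without batch 1 (-1.67, adjusted p = 0.335), and the oleosin OLEO3 (-1.32) without batch 1 (-0.79, adjusted p = 0.0919). What else moves with the batch was not tested.

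**Figure D3:**
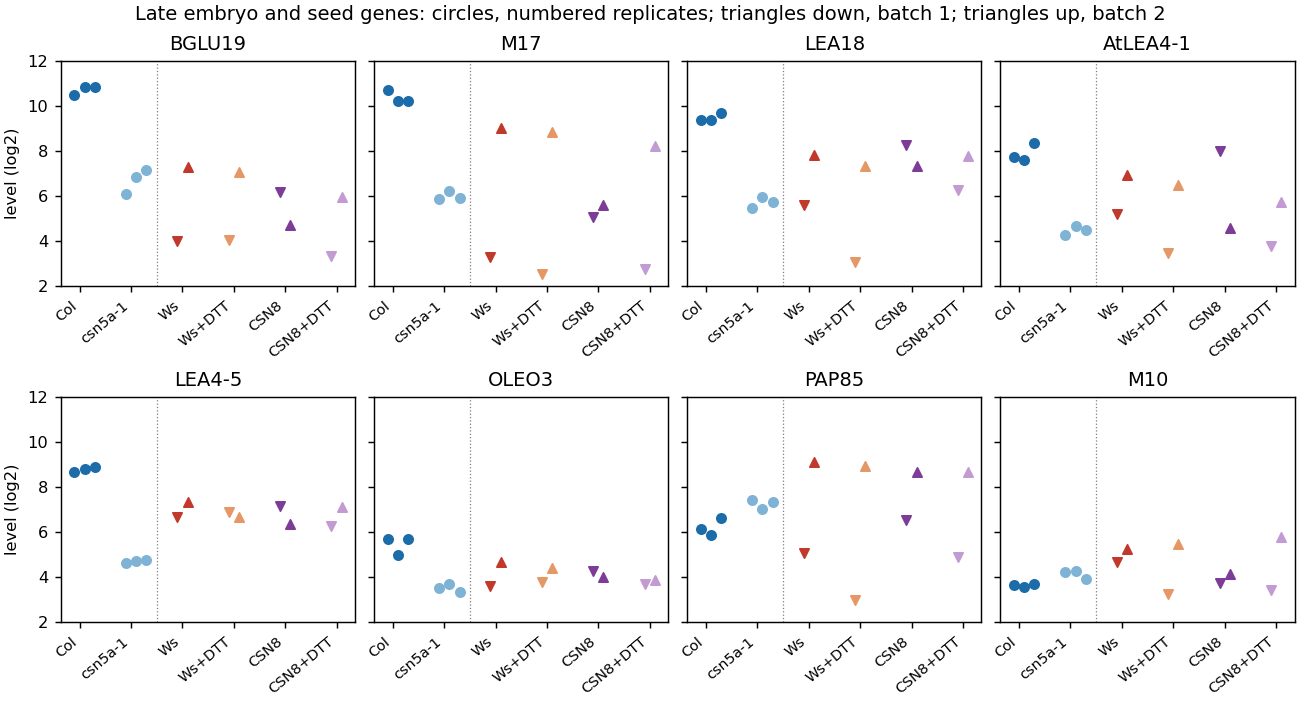
Levels (log2) of the 8 measured late embryo and seed genes on all 14 arrays, by group. Circles are the replicates of Columbia and csn5a-1, triangles pointing down batch 1 and triangles pointing up batch 2 of the other groups. M17 and PAP85 lie 4 or more log2 units apart between the batches of Wassilewskija and of Wassilewskija + DTT, while the Columbia replicates lie together.

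Of 10 measured flowering time genes 3 rose and 2 fell, with a median of -0.20, beside 19.6% each way over all probe sets. As deposited 6 fell and none rose, and without Wassilewskija of batch 1, 3 fell and none rose. GI, the clock gene GIGANTEA, read 6.76, 6.59 and 6.47 in Columbia and 7.73 and 7.54 in Wassilewskija (change 1.03 ± 0.25, adjusted p = 0.00651; 0.93 and adjusted p = 0.0535 without batch 1). FY, an RNA 3′ processing factor of the autonomous pathway, fell by 0.92 on the log2 scale, and SNZ, an AP2-type repressor of flowering, by 0.69. The calls of ATC (1.24) and SMZ (0.74) were each lost with several of the 5 arrays left out, at adjusted p of up to 0.155 and 0.328.

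The other 9 arrays showed how far each wild type difference extended. For 1814 of the 4030 probe sets called at 2-fold or more (45.0%), all 8 arrays of Wassilewskija and CSN8, with and without DTT, lay on one side of all 6 of Columbia and csn5a-1. Over all probe sets this held for 18.5%. For 1359 others the 3 Columbia arrays stood apart from the other 11, csn5a-1 included. The same held for 883 of the 1814 that divide by set. Over all probe sets, whether or not they divide by set, it held for 20.9%. For 388 that did not divide by set, and for 168 that did, the 4 Wassilewskija arrays stood apart from the other 10. Over all probe sets, whether or not they divide by set, this held for 5.03%. The 1359 and the 388 can share probe sets. Since the calls were made on 5 of these arrays, the shares among them are a description.

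Among the genes above, JAL33, ZW9, HIS1-3, ECS1 and HTB11 divided by array set. ZW9 read 8.6, 8.91 and 8.32 in Columbia and 9.21, 9.34 and 9.28 in csn5a-1, and 3.21 to 3.98 in the other 8 arrays. ECS1 read 12.11, 12.23 and 12.34 in csn5a-1, above Columbia, and 3.46 and 2.95 in CSN8. THI2.1, AOP3, SAG29, PRX52 and JAL23 were high in Columbia and low everywhere else. THI2.1 read 2.82, 3.21 and 3.03 in csn5a-1 and 2.66 and 2.76 in CSN8, and AOP3 3.43, 3.46 and 3.48 in csn5a-1 and 3.6 and 3.66 in CSN8. In both genes Columbia was the only group above the others. UGT73B5 was high in Wassilewskija (8.92 and 7.99) and Wassilewskija + DTT (8.52 and 8.65) and lay between 3.62 and 5.38 in the 10 other arrays. Of the 15 largest increases, 7 divided by array set, 7 had Columbia alone apart and 1 Wassilewskija alone. Of the 15 largest decreases, 7 divided by set and 8 had Columbia alone apart.

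**Figure D4:**
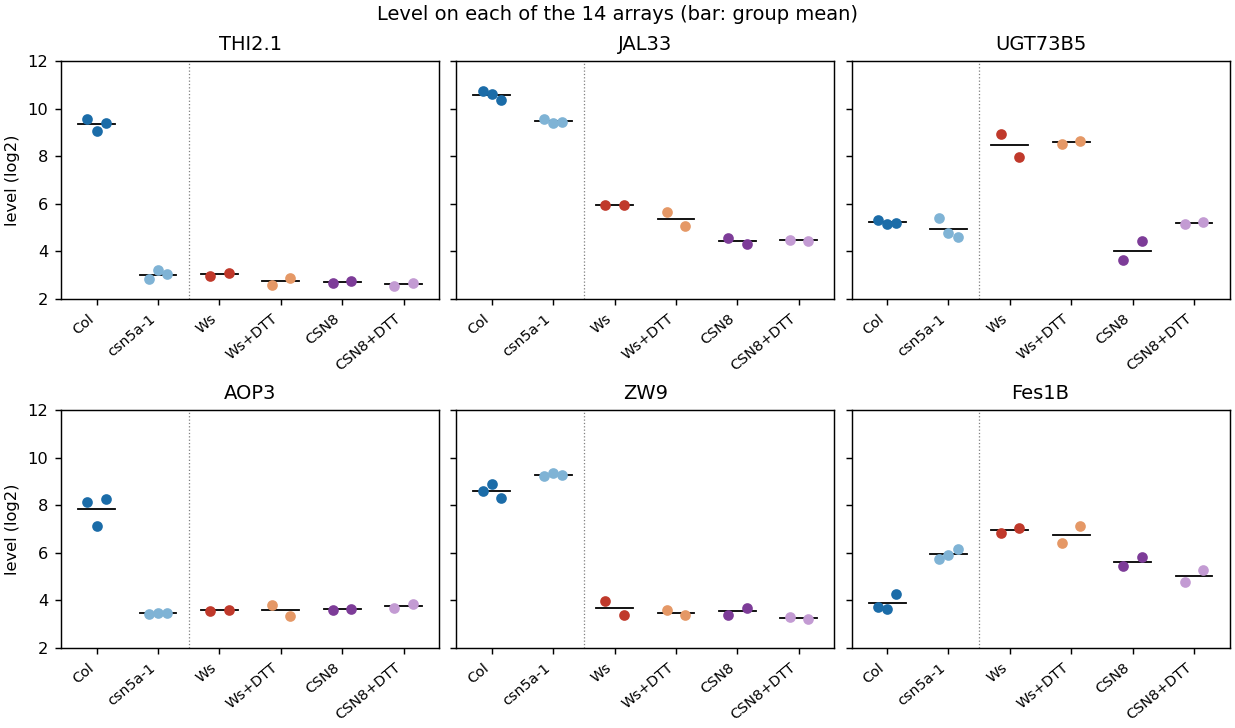
Levels (log2) of 6 genes on each of the 14 arrays, with bars at the group means and a dotted line between the 2 array sets (Col is Columbia, Ws is Wassilewskija). THI2.1 and AOP3 are high in Columbia alone, JAL33 and ZW9 in Columbia and csn5a-1, UGT73B5 in Wassilewskija with and without DTT, and Fes1B is lowest in Columbia.

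The difference CSN8 minus csn5a-1 has no array in common with the wild type comparison, but it lies between the same array sets and adds any effect of the 2 mutations. It had 8012 called probe sets (35.2%), 3444 of them at 2-fold or more (15.1%). Of the 4030 wild type calls at 2-fold or more, 2102 were also called in the mutants in the same direction and 278 in the opposite direction. Changes in wild types and in mutants correlated with r = 0.472 across probe sets, which share the probes, the array sets and the normalization. HIS1-3 changed by -5.81 in the mutants, JAL33 by -5.04, BHLH101 by -4.28 and PRN by 3.90, each past the threshold in the wild type direction. THI2.1 (-0.31, adjusted p = 0.182), SAG29 (0.24, adjusted p = 0.420), AOP3 (0.18, adjusted p = 0.655) and PRX52 (0.46, adjusted p = 0.222) did not pass in the mutants. A test of the difference between the changes passed for 4019 probe sets (17.7%), and for 16 of the 30 leading genes. Those 30 were chosen for their wild type change, which favours such a difference.

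**Figure D5:**
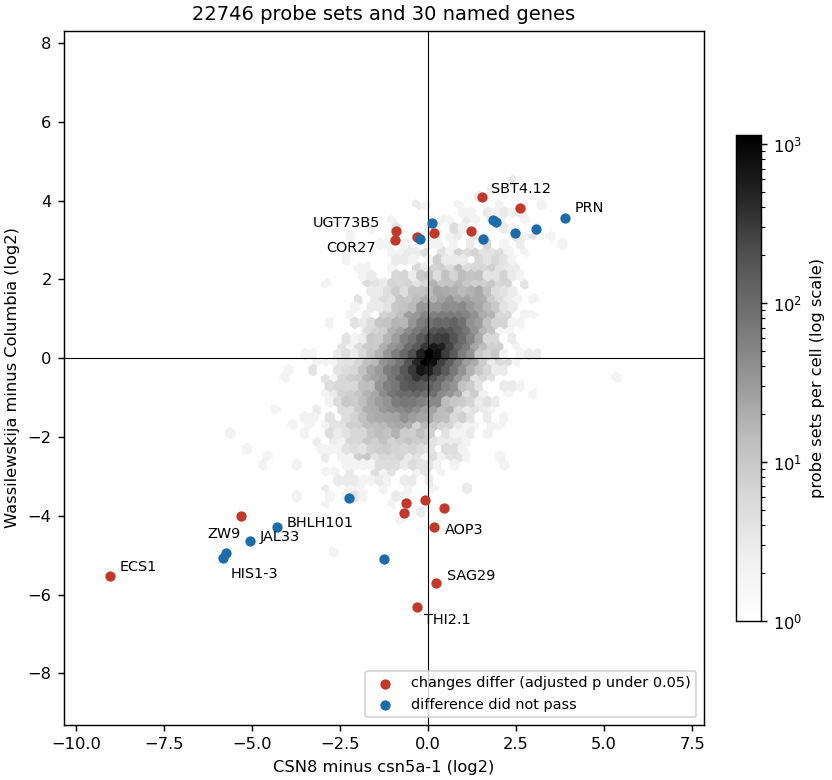
Wassilewskija minus Columbia (vertical, log2) against CSN8 minus csn5a-1 (horizontal, log2) for 22746 probe sets, shaded by number per cell on a log scale. Points are the 30 leading genes, red where the 2 changes differ at an adjusted p under 0.05 and blue where that test did not pass. HIS1-3, ZW9 and JAL33 lie near equal changes, and THI2.1, SAG29 and AOP3 near 0 on the horizontal axis.

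Called loci were spread over the genome. Of measured loci, 14.3% (chromosome 3) to 17.7% (chromosome 5) passed at 2-fold or more. In the order of locus numbers, 26 runs of at least 3 measured neighbours all passed at 2-fold or more in 1 direction, 15 higher and 11 lower, with 81 loci in all among 13264 measured, of which 2110 were called. Whether neighbouring copies of a gene hybridize to the same probes was not tested. AT1G52050, AT1G52060 and AT1G52070 rose by 4.23, 3.48 and 4.41, and AT4G15680, AT4G15690 and AT4G15700 by 3.79, 1.78 and 3.40. AOP3, AOP1 and AT4G03090 fell together (-4.27, -1.27 and -1.13), with the limit on AOP1 given above. AT5G24210, AT5G24230, AT5G24240 and AT5G24260 formed one of the longest runs, of 4 loci, all higher (3.87, 2.58, 1.06 and 1.58), the AT5G24240 call being lost without Wassilewskija of batch 1 (adjusted p = 0.139). AT3G56050, AT3G56060 and AT3G56080 fell (-1.34, -2.3 and -3.61).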

How the data were processed

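Values for 22810 probe sets on 14 arrays were deposited as log2 expression summaries; per the submitters' processing notes the tool was RMA, whose version is not given in the sources used here. The 64 control probe sets were left out of tests. All arrays were quantile normalized together and fitted in R 4.3.3 with limma 3.58.1 as 6 group means sharing 1 estimate of the spread. Tests were two-sided, with Benjamini-Hochberg adjustment over 22746 probe sets. Precision is limited by the number of arrays. The Wassilewskija arrays are labelled by batch; where separate cultures are not stated, p-values measure the spread between these samples.

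The platform annotation gave 1 gene for 13513 probe sets, several for 503 and none for 8730; 13484 of the 13513 matched the RefSeq gene table, and 1580 carried a symbol. Lists were therefore measured only in part. The metal and ion transport list had 91 symbols and 7 measured genes, and the late embryo and seed list 59 and 8. Nuclear photosynthesis had 62 and 9, heat shock 42 and 4, and jasmonate and defence peptides 64 and 13. Where a locus had several probe sets, lists used that with the highest mean over all arrays. The naming rule took the 15 largest changes each way with a symbol and 5 without, among calls whose wild type arrays did not overlap, members of runs, and up to 4 members per list. A few more members are named with their lists. Members and lists were chosen with earlier results of these data known, and families by symbol stem after seeing values. The fit was tested on simulated data. Alternatives covered normalization, samples fitted, dim probe sets, replicate block, single arrays left out and 1-gene probe sets. Some results are not reported here.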

Additional observations from a re-analysis of the deposited data

Results flagged for a closer look

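For 16 of the 30 leading genes the change between the wild types differed from the change between the mutants (CSN8 minus csn5a-1), tested by limma as a difference of the 2 changes with adjustment over all probe sets. The accession of CSN8 is not stated in the labels, so the mutants are no second comparison of the same accessions. The same test passed for 17.7% of all probe sets. The 30 genes were chosen for their large wild type change, which by itself favours a difference from the mutant change. The count of 16 is therefore a description. The values below are the wild type change minus the mutant change, in log2 units.

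The difference was furthest from 0 in genes that fell between the wild types, THI2.1 at -6.01 ± 0.24 (SE, adjusted p = 7.25e-07) and SAG29 at -5.95 ± 0.30 (adjusted p = 3.26e-06). AOP3 differed by -4.45 (adjusted p = 3.65e-05), PRX52 by -4.26 (adjusted p = 4.89e-05) and JAL23 by -3.53 (adjusted p = 1.90e-05). TBL26 differed by -3.25 (adjusted p = 0.000113) and OCT1 by -3.06 (adjusted p = 0.000844). ECS1 (3.48, adjusted p = 0.00229) and HTB11 (1.32, adjusted p = 0.00850) fell in both comparisons and further in the mutants.

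Among genes that rose between the wild types, UGT73B5 differed by 4.14 (adjusted p = 0.000113), COR27 by 3.93 (adjusted p = 0.000644) and Fes1B by 3.38 (adjusted p = 0.000173). GAT1_2.1 differed by 3.02 (adjusted p = 0.00717), SBT4.12 by 2.58 (adjusted p = 0.00370), GSTU25 by 2.01 (adjusted p = 0.0312) and Prx37 by 1.19 (adjusted p = 0.0299). COR27 read 7.62, 7.58 and 7.34 in csn5a-1, 7.41 and 6.01 in Wassilewskija, and 3.57 to 3.89 in Columbia. SBT4.12, GSTU25 and Prx37 rose in both comparisons, and more between the wild types.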

How the results depend on the processing

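Of 225 named genes past the threshold, 174 kept their direction and call under every alternative that could be computed. The count of 8924 calls ran from 6380 (without Wassilewskija of batch 1) to 8071 with 1 wild type array left out, and that of 4030 at 2-fold or more from 3728 to 4328. For the mutants, 8012 became 5550 to 6997 and 3444 became 3070 to 3857. With probe sets of 1 gene only, the counts were 4966 and 2146 for the wild types and 4488 and 1847 for the mutants, since fewer were tested. A test against a minimum log2 change of 1 (treat) called 1209 in place of 4030. Without probe sets below the median level in both wild types, the mutants had 5041 calls, again with fewer tested. The replicate block, as a random effect (consensus correlation 0.123), gave 8995 calls; 2 named calls, SMZ and BGLU45, were lost and no other. The number is a batch in one array set and a replicate in the other, and pairs no Wassilewskija with a Columbia array. As deposited, 13271 probe sets were called and 3 genes changed sign, EFR (0.38 to -0.0137), NAI1 (0.57 to -0.0548) and YAB5 (0.27 to -0.37); with median centring 10130 were called and CEG moved from -0.04 to 0.21. EFR, YAB5 and CEG did not pass in either direction, and the cause was not tested. Levels near the floor limit folds.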

Other observations

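Over all probe sets 19.6% rose and 19.6% fell, against which the counts of the following families are to be read. Serine carboxypeptidase-like genes (SCPL), relatives of enzymes that transfer acyl groups in secondary metabolism, had 1 of 29 members higher and 6 lower, with 0 and 15 as deposited and 6 and 4 with median centring. Of these scpl42 read 8.18, 8.23 and 8.1 in Columbia and 4.82 and 5.94 in Wassilewskija (change -2.79 ± 0.26), and scpl20 7.04, 6.85 and 7.07 against 4.83 and 4.47 (change -2.34 ± 0.19). Of 10 VPS genes, which sort membrane proteins to the vacuole, 6 rose and 1 fell (4 and 3 as deposited). VPS20.1 read 4.68, 4.91 and 5.16 against 7.46 and 6.27 (change 1.95 ± 0.31), and VPS2.1 7.24, 7.34 and 7.36 against 9.59 and 8.78 (change 1.87 ± 0.26). The TBL family, which holds cell wall acetyltransferases, had 7 of 22 members higher and 5 lower (4 and 12 as deposited), from TBL45 (2.46) to TBL26 (-3.92). Among 7 calmodulin-like CML genes, CML42 (2.46), CML30 (1.81) and CML38 rose and CML23 (-1.30) fell.

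Of 145 loci with more than 1 single-gene probe set, 79 had at least 1 called. In 13 loci all probe sets were called in the same direction and in 4 loci probe sets were called in opposite directions. The 2 Wassilewskija arrays differed by at least 2-fold at 856 probe sets and the range of the 3 Columbia arrays reached 2-fold at 439. The largest change of any probe set was -7.93, for one with no gene name here.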
